A study of Homo sapiens with 5 samples.

Results

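The lysosome and autophagy genes described here are 39 named genes, chosen by their symbols out of the 10591 genes of the table. The rule uses no measured value, but the list was drawn up with earlier results of these data known. They comprise 18 lysosomal hydrolases, 4 lumenal proteins without hydrolase activity of their own (lumenal helpers), 6 membrane proteins, 3 subunits of the proton pump and 8 autophagy genes. Where a gene had several transcript rows, the one with the highest mean was used. ATG13 carries its older symbol KIAA0652 in the table and was found through its RefSeq accession.

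All libraries came from MDA-MB-231, a human cell line derived from a triple-negative mammary carcinoma. The cells received a control siRNA (siNT) for 48 hours, an siRNA against SET (siSET) for 48 hours, an siRNA against CIP2A (siCIP2A), PBS for 12 hours as the control of the compound, or OP449 at 1 µM for 12 hours. The label of siCIP2A gives no time, while the treatment protocol gives 48 hours for both knockdowns. SET and CIP2A are inhibitors of the phosphatase PP2A, and the series describes OP449 as a SET antagonist. There was 1 library per group, so conditions could not be tested against each other, and no difference below has a replicate check. SET and CIP2A themselves were not analysed here, so the knockdowns were not checked on their targets.

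Lysosomes are acidic organelles in which hydrolases break down proteins, glycans, lipids and nucleic acids. The vacuolar ATPase pumps protons into them, and membrane glycoproteins such as LAMP1 line them. Autophagy delivers cytoplasm to lysosomes inside autophagosomes, whose growth depends on the ULK1 kinase complex and on small ATG8-type proteins such as GABARAP and LC3. Many lysosomal genes are controlled together by the factors TFEB and TFE3, which bind E-box-like elements in promoters. c-MYC, named in the title of the series, also binds E-boxes.

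Values are scaled counts, the deposited reads per transcript put on a common scale. Recovered reads over the gene table ran from 3640533 in siSET to 5601016 in siCIP2A, of which the members took 1.13% in OP449 to 1.39% in siCIP2A. Log2 folds are on log2(value + 1). Brackets hold the 95% exact counting interval of the log2 ratio of 2 libraries. Such an interval covers counting error only and compares libraries, not conditions. Of the 39 members, 38 were past a mean of 50 scaled counts in every comparison. CTSK, the collagen-degrading cathepsin K, lay under it, with 24 to 40 scaled counts from 14 to 34 reads.

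VIM, CD44, AXL and KRT18, expected in this line, stood at 2032 scaled counts or more in every library. PGR was at 0 and CDH1 at 12.9 to 56.7, while ERBB2 stood at 1049 to 1179, GATA3 at 133 to 250 and KRT19 at 4275 to 5998, although these 3 were listed as low or absent. LAPTM5, CTSS and IFI30 are best known from immune cells. Of 9 leukocyte markers, all in the table, 8 were at or near 0, with at most 3.42 scaled counts each, and CD68, a glycoprotein of late endosomes and lysosomes, stood at 1989 to 2401. The summed level of the 9 ran from 1993 in PBS to 2404 in siCIP2A.

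Per kilobase of transcript, the most abundant members were CTSD, at a mean of 11065 scaled counts, PSAP at 4797, NPC2 at 2411 and GRN at 2140. ULK1 at 47.0 and CTSK at 19.0 were the least abundant. The median level per kilobase was 263 scaled counts over the hydrolases and 214 over the autophagy genes. Reverse transcription began at oligo-dT primers, and how evenly reads cover the transcripts was not tested.

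Most members stood somewhat higher in both knockdown libraries than in siNT, and somewhat lower in OP449 than in PBS. In siSET, 26 of 38 members were higher than siNT and 12 lower, and the median log2 fold was 0.11, beside 0.01 over 6083 genes, 52.1% of which were higher and 47.9% lower. In siCIP2A, 26 were higher and 12 lower, with a median of 0.10 beside 0.02 over all genes, 52.6% of which were higher and 47.4% lower. In OP449, 14 were higher and 24 lower than PBS, with a median of -0.07 beside 0.02 over all genes, 46.3% of which were lower and 53.7% higher. Between the controls the members were evenly split, with 20 higher in siNT, beside 49% of all genes, and 18 lower, beside 51%. siSET and siCIP2A share the control siNT, so these 2 counts are not independent of each other.

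The same lean was seen among members whose difference exceeded counting error. In siSET, 17 members had an interval above 0, where 19.8% of all genes did, and 5 had one below 0, again beside 19.8%. In siCIP2A, 17 lay above 0 beside 21.3% of all genes, and 4 below beside 20.2%. In OP449, 4 lay above beside 19.3%, and 12 below beside 16.9%, counts that became 7 and 10 when library totals were made equal. Between the controls siNT and PBS, 10 members lay above 0 beside 17.7% of all genes and 9 below beside 17.6%, with a median of 0.00. The controls thus differed from each other in about as many members as each treated library did, but with no lean to one side. Members were more abundant than other genes, with a median of 882 scaled counts against 493, which narrows their intervals. Among genes past 200 scaled counts, 22.2% lay above 0 and 22.4% below in siSET, 23.4% and 23.2% in siCIP2A, and 21.6% and 19.6% in OP449. Genes past that floor were thus close to evenly split, but they were not matched to the members' level.

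Few members differed much. At least 1.5-fold higher than siNT in siSET were 3 members, beside 2.84% of all genes, and 2 were lower, beside 4.31%. In siCIP2A 2 were higher, beside 2.77%, and 1 lower, beside 3.34%. In OP449 none was higher, beside 2% of all genes, and 1 was lower, beside 1.77%. Between the controls none reached 1.5-fold in either direction, beside 1.65% higher and 1.4% lower. With 0 to 3 of 38 members past 1.5-fold in either direction, the counts are too small to set the members apart from all genes, and most differences between libraries were small. With a threshold of 2-fold, LAPTM5 was the one member left in siSET and in siCIP2A, beside 0.789% and 0.639% of all genes lower and 0.395% and 0.475% higher. In OP449 none was left, beside 0.295% in each direction.

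**Figure D1:**
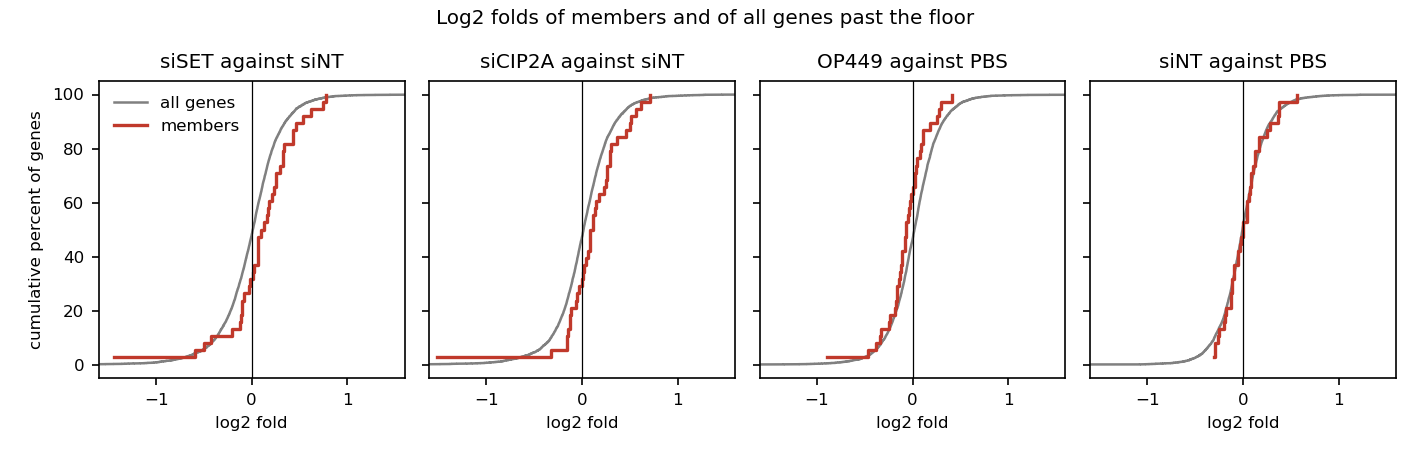
Cumulative percent of genes (vertical axis) by log2 fold (horizontal axis) for the 38 members (red) and all genes past the floor (grey) in 4 comparisons. At the median, the members' curve lies to the right of the grey one in both knockdown comparisons (0.11 and 0.10), to the left in OP449 (-0.07), and on it between the controls (0.00). In the lower tail of the knockdown panels it does not lie to the right. At least 2-fold lower were 2.63% of members in each, against 0.789% of all genes in siSET and 0.639% in siCIP2A.

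**Figure D2:**
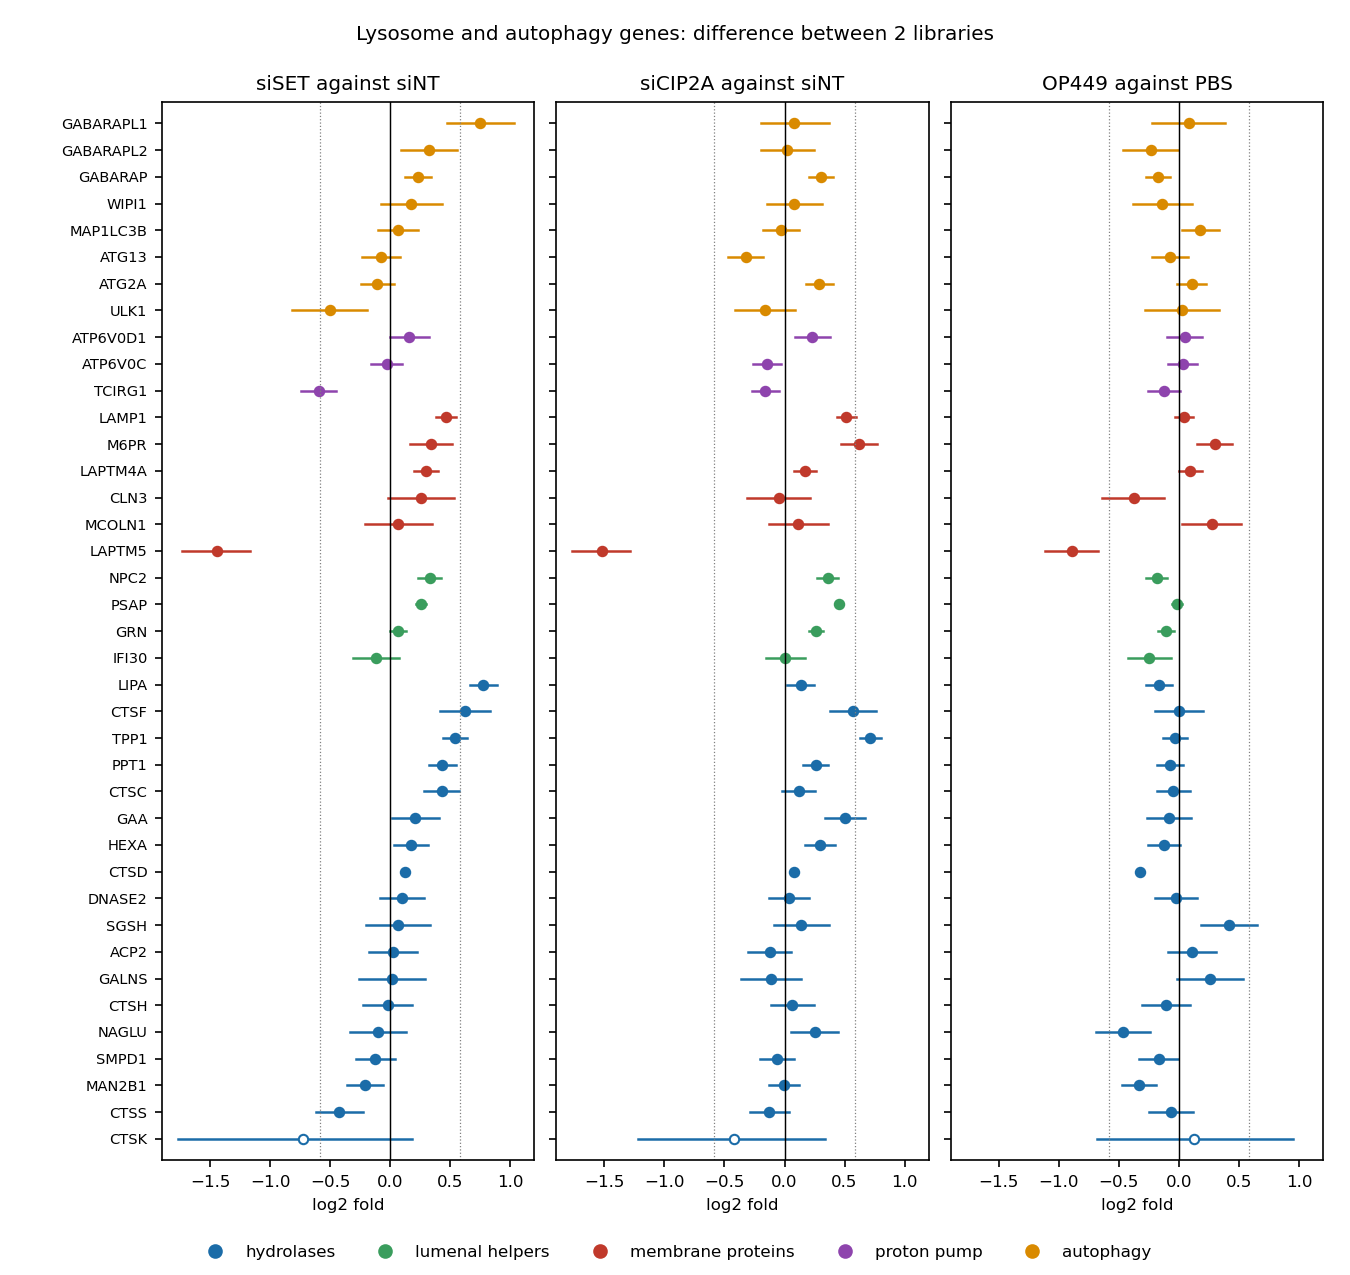
Log2 fold of each of the 39 members in 3 comparisons, coloured by class, with lines for the 95% counting interval, dotted lines at 1.5-fold and an open point for a gene under the floor. LAPTM5 stands apart on the left in all 3 panels, at -1.44, -1.52 and -0.89. In OP449, 14 of the 38 members past the floor lie to the right of 0 and 24 to the left.

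Among the 6 membrane proteins, LAPTM5 differed most, and it was the one of the 6 that was lower in all 3 treated libraries than in their controls with intervals below 0. It encodes a transmembrane protein of late endosomes and lysosomes, known for promoting the degradation of lymphocyte receptors. It stood at 616 scaled counts in siNT and 597 in PBS, against 226 in siSET, 214 in siCIP2A and 322 in OP449, from 520, 527, 132, 194 and 250 reads in that order. The 2 controls thus lay close together, and each of the 3 treated libraries lay below both. Log2 folds were -1.44 [-1.74 to -1.17] in siSET and -1.52 [-1.77 to -1.28] in siCIP2A against siNT, and -0.89 [-1.11 to -0.67] in OP449 against PBS. The controls differed by 0.04 [-0.13 to 0.22], and siSET differed from siCIP2A by 0.08 [-0.25 to 0.40]. The summed leukocyte markers, nearly all of it CD68, stood at 2229 in siNT, 1993 in PBS, 2205 in siSET, 2404 in siCIP2A and 2212 in OP449, and the defining markers other than CD68 were at or near 0 in every library. In RNA of whole cultures, fewer cells with the transcript and less of it per cell cannot be told apart. On hg19 its transcript spans chromosome 1 from 31205315 to 31230683, on the minus strand. LAPTM4A, its relative found in most tissues, stood at 2064 in siNT and 2057 in PBS, against 2542 in siSET, 2327 in siCIP2A and 2195 in OP449, with folds of 0.30 [0.20 to 0.40] in siSET and 0.17 [0.08 to 0.26] in siCIP2A. The 2 relatives therefore differed in opposite directions in both knockdown libraries.

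LAMP1, a main glycoprotein of the lysosomal membrane, stood at 2725 in siNT and 3337 in PBS, against 3760 in siSET, 3897 in siCIP2A and 3432 in OP449. Both knockdown libraries were above both controls, with 0.46 [0.38 to 0.55] and 0.52 [0.44 to 0.59] against siNT. The control siNT was itself below PBS, at -0.29 [-0.37 to -0.21], so against PBS the folds were 0.17 and 0.22. M6PR, the cation-dependent mannose 6-phosphate receptor that carries new hydrolases to endosomes, stood at 708 in siNT and 839 in PBS, against 896 in siSET, 1087 in siCIP2A and 1031 in OP449. It was higher in all 3 treated libraries than in their controls, by 0.34 [0.17 to 0.51], 0.62 [0.47 to 0.77] and 0.30 [0.15 to 0.44]. For M6PR too siNT was below PBS, at -0.25 [-0.40 to -0.09]. Against PBS, M6PR stood at 0.10 [-0.07 to 0.26] in siSET and 0.37 [0.23 to 0.51] in siCIP2A. MCOLN1, the lysosomal calcium channel TRPML1, stood at 299.8 in siNT and 306 in PBS, against 315 in siSET, 325 in siCIP2A and 370 in OP449. OP449 was the highest, at 0.27 [0.03 to 0.52], and both knockdown intervals held 0. CLN3, the membrane protein lost in juvenile Batten disease, stood at 283 in siNT and 350.3 in PBS, against 339 in siSET, 274 in siCIP2A and 269 in OP449. Its fold in OP449 was -0.38 [-0.64 to -0.12], but PBS was the highest library, and siNT was itself below PBS at -0.31 [-0.56 to -0.06].

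The promoters of 33 members were matched by symbol in a RefSeq table on GRCh38.p14, in 41 windows of 300 bases that run from 250 before to 50 after an annotated start. Those of HEXA, NAGLU, CTSK, SGSH, CTSS and PSAP were not matched. Windows were searched for the E-box core CACGTG, for the 8-base form TCACGTGA and for a 10-base form with a further G before it and C after it, which is the core of the element described for TFEB targets. Each motif reads the same on both strands, and each shorter one lies within the longer. The core was found in 11 member windows, or 26.8%, from 10 genes, against 7.26% of all 35116 windows and 9.20% of the 7562 windows of genes past the floor. The 8-base form was found in 17.1% of member windows, from 6 genes, against 0.98% and 1.81%. The 10-base form was found in 7.32%, from 3 genes, against 0.353% and 0.701%. CLN3 has overlapping windows that hold the same sites, and both count for the core and the 8-base form. The element is one described for lysosomal genes, and most members were chosen as such genes. Its higher share in their windows is therefore not an independent result. These are matches of letters and do not show binding.

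The LAMP1 window is shown because it held the most cores of all member windows, and the LAPTM5 window because that gene differed most. Capitals mark CACGTG. The LAMP1 window is chr13:113296989-113297288 on the plus strand, and that of LAPTM5 is chr1:30757725-30758024 on the minus strand, both on GRCh38.p14.
LAMP1: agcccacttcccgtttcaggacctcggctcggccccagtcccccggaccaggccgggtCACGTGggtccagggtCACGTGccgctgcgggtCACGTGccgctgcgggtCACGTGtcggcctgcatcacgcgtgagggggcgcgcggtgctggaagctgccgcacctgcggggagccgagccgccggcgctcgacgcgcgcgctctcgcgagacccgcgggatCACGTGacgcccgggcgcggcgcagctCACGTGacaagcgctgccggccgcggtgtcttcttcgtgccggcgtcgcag
LAPTM5: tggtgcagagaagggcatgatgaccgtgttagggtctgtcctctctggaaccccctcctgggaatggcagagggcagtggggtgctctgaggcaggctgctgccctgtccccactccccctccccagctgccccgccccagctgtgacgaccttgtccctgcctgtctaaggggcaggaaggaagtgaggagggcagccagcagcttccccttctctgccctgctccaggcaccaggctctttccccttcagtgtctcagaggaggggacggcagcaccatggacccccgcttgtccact

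LAMP1 held 6 cores, the first of them at -192 and the last across the start itself, at -1. LAPTM5 held none, and its window had 5 CpG dinucleotides against a median of 25 in member windows and 26 in windows of genes past the floor, 9.18% of which had no more. Its GC content of 64.7% was close to the median of 65.3% in windows of genes past the floor. The 8-base form in the other genes is shown in capitals below with 8 bases on either side, so that the flanks can be compared.
CLN3: gggtgctgTCACGTGAtccgacaa
ATP6V0D1: ccttatggTCACGTGAggcgcttg
GALNS: gcaccgcgTCACGTGAcccgccgc
GAA, first: aggccgcgTCACGTGAcccaccgc
GAA, second: cccgccggTCACGTGAcccgcctc
MCOLN1, first: agaggcggTCACGTGAggggctct
MCOLN1, second: ctaccgggTCACGTGAccgaggca

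On GRCh38.p14 these lie at chr16:28492061-28492084 (CLN3), chr16:67481202-67481225 (ATP6V0D1) and chr16:88857107-88857130 (GALNS) on the minus strand. On the plus strand lie chr17:80101496-80101519 and chr17:80101541-80101564 (GAA), and chr19:7522574-7522597 and chr19:7522601-7522624 (MCOLN1). The 6 genes with the 8-base form, LAMP1 included, had log2 folds of 0.02 to 0.46 in siSET, -0.11 to 0.52 in siCIP2A and -0.38 to 0.27 in OP449. In OP449 they did not share a direction, with an interval above 0 for MCOLN1 and below 0 for CLN3. In siCIP2A the folds of GALNS and CLN3 were below 0, but their intervals held 0, as did that of MCOLN1. The siCIP2A intervals of LAMP1, GAA and ATP6V0D1 lay above 0. In siSET the intervals of GALNS, MCOLN1, CLN3 and ATP6V0D1 held 0, and those of LAMP1 and GAA lay above it.

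**Figure D3:**
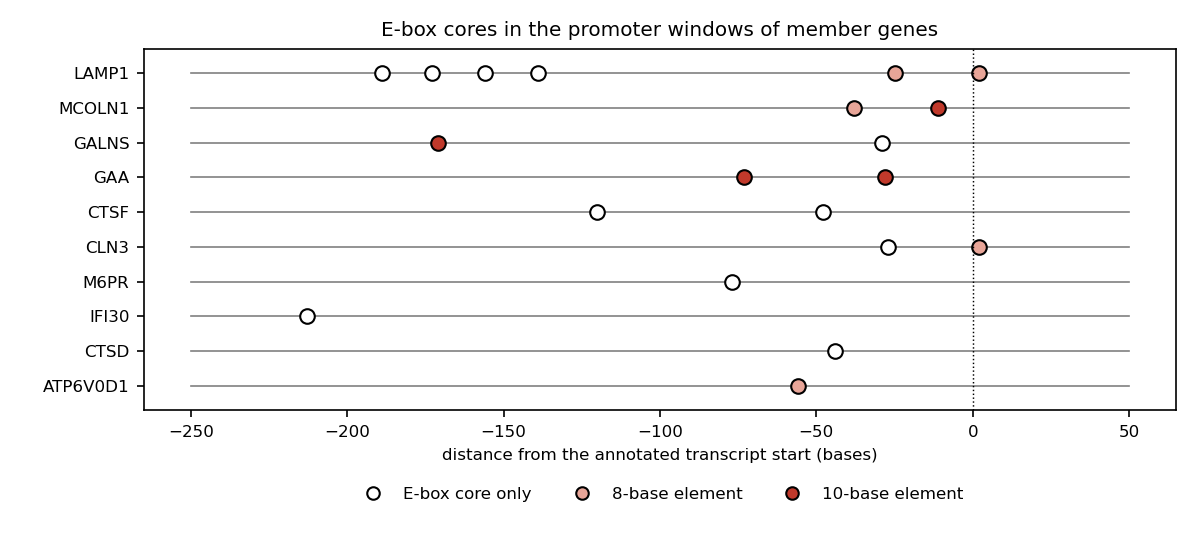
Position of each CACGTG core in the 10 member genes that held one, in bases from the annotated transcript start (horizontal axis), by gene (vertical axis), with CLN3 drawn for 1 of its 2 overlapping windows. Filled points mark cores within the 8-base or 10-base element. LAMP1 holds 6 cores, and all but 1 of the elements (that of GALNS) lie within 80 bases of the start.

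Of the 17 hydrolases past the floor, 12 were higher in siSET than in siNT, beside 52.1% of all genes. The median was 0.10, beside 0.01 over all genes. Of the 17, 8 had an interval above 0 and 2 below, beside 19.8% of all genes on each side. In siCIP2A 12 were higher, beside 52.6%, with a median of 0.12 beside 0.02. There 8 had an interval above 0, beside 21.3%, and none below, beside 20.2%. In OP449 4 were higher than PBS, beside 53.7%, and 13 lower, beside 46.3%, with a median of -0.08 beside 0.02. There 1 had an interval above 0, beside 19.3%, and 5 below, beside 16.9%. TPP1, the tripeptidyl peptidase lost in late infantile Batten disease, stood at 1914 scaled counts in siNT and 2071 in PBS, against 2787 in siSET, 3138 in siCIP2A and 2023 in OP449. Both knockdown libraries lay above the other three, with 0.54 [0.44 to 0.64] in siSET and 0.71 [0.62 to 0.80] in siCIP2A. CTSF, which encodes the cysteine protease cathepsin F, was also high in both knockdown libraries, at 438 in siNT and 504 in PBS, against 676 in siSET, 650 in siCIP2A and 505 in OP449. Its folds were 0.62 [0.42 to 0.83] and 0.57 [0.38 to 0.76].

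LIPA, the acid lipase that frees cholesterol and fatty acids from lipoprotein lipids, was the member with the highest fold in siSET. It stood at 1430 in siNT and 1756 in PBS, against 2448 in siSET, 1569 in siCIP2A and 1564 in OP449, so that siSET was the highest and the other 4 libraries lay between 1430 and 1756. The fold was 0.77 [0.66 to 0.89] against siNT, 0.64 [0.53 to 0.75] against siCIP2A and 0.48 against PBS. PPT1, the palmitoyl thioesterase, was higher in siSET at 0.43 [0.32 to 0.55] and in siCIP2A at 0.26 [0.15 to 0.37]. CTSC, the dipeptidyl peptidase that activates granule proteases, stood at 933 in siNT and 1052 in PBS, against 1257 in siSET, 1013 in siCIP2A and 1018 in OP449. The siSET library was the highest, at 0.43 [0.28 to 0.58], while siCIP2A gave 0.12 [-0.02 to 0.26]. GAA, the acid glucosidase that degrades glycogen, leaned the other way, at 0.21 [0.02 to 0.41] in siSET and 0.50 [0.33 to 0.67] in siCIP2A. Directly compared, siSET was above siCIP2A for CTSC, at 0.31 [0.17 to 0.45], and below it for GAA, at -0.29 [-0.47 to -0.11].

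Not all proteases were higher. CTSS, the cathepsin that trims the invariant chain in antigen-presenting cells, stood at 743 in siNT and 612 in PBS, against 554 in siSET, 680 in siCIP2A and 585 in OP449. It was lower in siSET, at -0.42 [-0.62 to -0.23], where siNT was itself above PBS at 0.28 [0.11 to 0.45]. CTSK, under the floor, stood at -0.73 [-1.76 to 0.19] in siSET. CTSH, an aminopeptidase-like cathepsin, had intervals that held 0 in all 3 treated comparisons with their own control. CTSD, the aspartic protease cathepsin D, had 14651 to 22166 reads and so the narrowest intervals. It stood at 22971 in siNT and 25126.5 in PBS, against 25063 in siSET, 24277 in siCIP2A and 20014 in OP449, which puts OP449 lowest, at -0.33 [-0.36 to -0.30] against PBS. The interval is narrow, but variation between cultures is not in it.

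Hydrolases of glycans and sulfated sugars split in OP449. NAGLU, which degrades heparan sulfate, stood at 467 in siNT and 483 in PBS, against 436 in siSET, 555 in siCIP2A and 349 in OP449, and OP449 was the lowest at -0.47 [-0.69 to -0.24]. SGSH, the sulfamidase of the same pathway, was instead highest in OP449. It stood at 341 in siNT and 325 in PBS, against 358 in siSET, 377 in siCIP2A and 434 in OP449, and its fold of 0.42 [0.18 to 0.65] was the highest of all members there. MAN2B1, the acid mannosidase, was lower in OP449 at -0.34 [-0.48 to -0.19] and in siSET at -0.21 [-0.36 to -0.06]. HEXA, the alpha subunit of hexosaminidase, was higher in siSET at 0.18 [0.03 to 0.32] and in siCIP2A at 0.29 [0.17 to 0.42]. GALNS, a sulfatase of keratan sulfate, had intervals that held 0 in all 3 treated comparisons, as did the acid phosphatase gene ACP2 and the nuclease gene DNASE2. ACP2 differed instead between the controls, with 614 in siNT and 473 in PBS, at 0.38 [0.19 to 0.57], against 624 in siSET, 564 in siCIP2A and 510 in OP449. SMPD1, the acid sphingomyelinase, was lower in OP449, at -0.17, with an interval that ended just below 0.

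**Figure D4:**
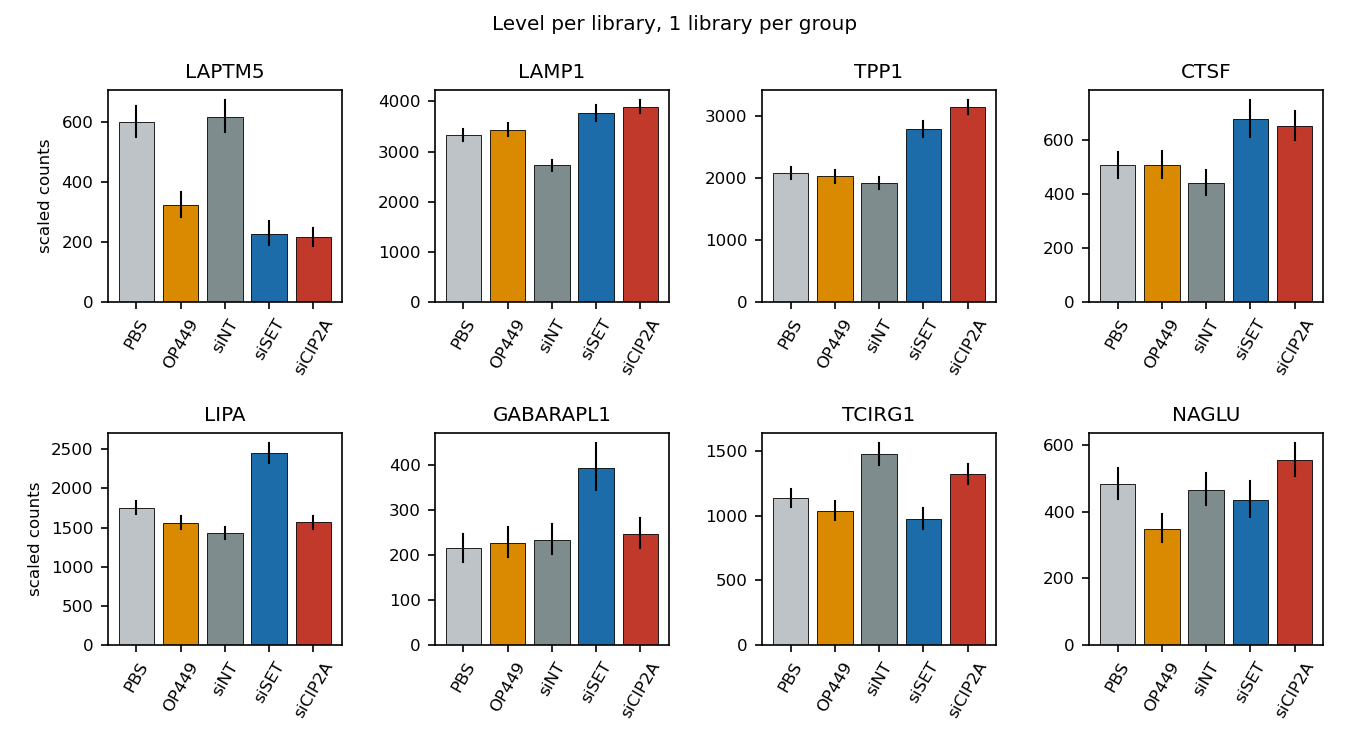
Level in scaled counts (vertical axes from 0) of 8 members in the 5 libraries, 1 library per group, with 95% exact Poisson counting intervals as lines. LAPTM5 is lower in the 3 treated libraries than in both controls, LIPA and GABARAPL1 are high in siSET (2448 and 393), and TPP1 and CTSF are high in both knockdown libraries.

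On hg19 the transcripts described most fully lie on chromosome 11 from 6633997 to 6640692 on the minus strand for TPP1, on chromosome 11 from 66330936 to 66336047 on the minus strand for CTSF and on chromosome 10 from 90973328 to 91011660 on the minus strand for LIPA. Those of LAMP1 and GABARAPL1, both on the plus strand, lie on chromosome 13 from 113951469 to 113977741 and on chromosome 12 from 10365489 to 10375722. That of TCIRG1 lies on chromosome 11 from 67806483 to 67818365 on the plus strand.

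The lumenal helpers assist the hydrolases or carry their products. PSAP, the precursor of the saposins that present sphingolipids to their hydrolases, stood at 12715 in siNT and 11830 in PBS, against 15192 in siSET, 17439 in siCIP2A and 11704 in OP449. Both knockdown libraries were above both controls, at 0.26 [0.22 to 0.30] and 0.46 [0.42 to 0.49] against siNT, while OP449 stood at -0.02 [-0.06 to 0.03]. GRN, which encodes progranulin, was higher in siCIP2A at 0.26 [0.21 to 0.32] and lower in OP449 at -0.11 [-0.17 to -0.04]. NPC2, the carrier of cholesterol within the lysosome, stood at 2155 in siNT and 2581 in PBS, against 2706 in siSET, 2767 in siCIP2A and 2269 in OP449. Its siNT value was the lowest of the 5, so the fold of 0.33 in siSET came to 0.07 against PBS. IFI30, the interferon-inducible thiol reductase GILT, was lower in OP449, at -0.25 [-0.43 to -0.07], and spanned 0 in both knockdowns. All 4 were below PBS in OP449, beside 46.3% of all genes, 3 of them with an interval below 0, beside 16.9%.

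The 3 proton pump subunits belong to the membrane sector of the vacuolar ATPase, and they did not move together. TCIRG1, the a3 subunit used in osteoclasts, stood at 1479 in siNT and 1136 in PBS, against 980 in siSET, 1325 in siCIP2A and 1041 in OP449. Its fold in siSET was -0.59 [-0.74 to -0.45], a 1.51-fold difference, but siNT was above PBS by 0.38 [0.26 to 0.50], and siSET stood at -0.21 against PBS. ATP6V0C, the proteolipid of the rotating ring, had the smallest spread of all members, with its highest value 1.11 times its lowest, at 1440 in siNT and 1315 in PBS, against 1413 in siSET, 1299 in siCIP2A and 1342 in OP449. ATP6V0D1, which couples that ring to the stalk, was higher in siCIP2A at 0.23 [0.09 to 0.38]. In OP449 the intervals of all 3 held 0.

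Among the 8 autophagy genes, the ATG8-type members differed from each other. GABARAPL1 stood at 233 in siNT and 214 in PBS, against 393 in siSET, 247 in siCIP2A and 227 in OP449, so that siSET was high and the other 4 libraries were close. Its fold in siSET was 0.75 [0.47 to 1.03] against siNT, 0.87 against PBS and 0.67 [0.40 to 0.94] against siCIP2A, from 176 to 230 reads per library. GABARAP, the most abundant of the family per kilobase, stood at 1820 in siNT and 2072 in PBS, against 2143 in siSET, 2247 in siCIP2A and 1835 in OP449. It was higher in both knockdowns than in siNT, at 0.24 [0.13 to 0.34] and 0.30 [0.21 to 0.40], and lower in OP449 at -0.18 [-0.28 to -0.07]. The control siNT was its lowest library, at -0.19 [-0.29 to -0.09] against PBS. Against PBS, GABARAP stood at 0.05 [-0.06 to 0.15] in siSET and 0.12 [0.03 to 0.21] in siCIP2A. GABARAPL2 was higher in siSET, at 0.32 [0.09 to 0.56], while siCIP2A gave 0.02 [-0.20 to 0.24] and siSET against siCIP2A gave 0.30 [0.07 to 0.53]. MAP1LC3B, the LC3 protein used as the common marker of autophagosomes, stood at 824 in siNT and 801 in PBS, against 864 in siSET, 807 in siCIP2A and 907 in OP449. Of the 4 it alone had an interval above 0 in OP449, at 0.18 [0.03 to 0.33]. These genes are relatives, and no source used here states how reads shared between relatives were counted.

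ULK1, the kinase that starts autophagy, stood at 315 in siNT and 213 in PBS, against 222 in siSET, 282 in siCIP2A and 216 in OP449. The fold of -0.50 [-0.82 to -0.20] in siSET depended on the control, since siNT was the highest library, 0.56 [0.29 to 0.84] above PBS, and siSET against PBS gave 0.06. ATG13, its partner in the same complex, stood at 1012 in siNT and 901 in PBS, against 960 in siSET, 808 in siCIP2A and 857 in OP449, and was lower in siCIP2A at -0.32 [-0.47 to -0.18]. ATG2A, which transfers lipids to the growing membrane, stood at 1327 in siNT and 1326 in PBS, against 1233 in siSET, 1622 in siCIP2A and 1429 in OP449. It was higher in siCIP2A, at 0.29 [0.18 to 0.40], and siSET was below siCIP2A at -0.39 [-0.53 to -0.27]. WIPI1, a phosphoinositide-binding protein of the autophagosome, spanned 0 in all comparisons.

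Taking both controls into account, 10 members in siSET had an interval above 0 against siNT and also against PBS, beside 10.5% of 6092 genes. They were CTSC, CTSF, GABARAPL1, GRN, LAMP1, LAPTM4A, LIPA, PPT1, PSAP and TPP1. GRN only just entered, at 0.07 [0.0006 to 0.14] in siSET against siNT. Below both controls were LAPTM5, MAN2B1 and TCIRG1, beside 11% of all genes. In siCIP2A 15 members were above both controls, beside 12.1% of genes, among them TPP1, PSAP, M6PR, GAA and LAMP1, and ATG13 and LAPTM5 were below both, beside 11.6%. In OP449 M6PR, MCOLN1 and SGSH were above both controls, beside 11.5%, and 7 were below, beside 10.5%. These 7 were CTSD, GRN, IFI30, LAPTM5, MAN2B1, NAGLU and SMPD1. Against PBS alone, 13 members in siSET had an interval above 0, beside 19.2% of all genes, and 3 below, beside 19.3%. In that comparison 1 member, GABARAPL1, was at least 1.5-fold higher, beside 2.38%, and 1, LAPTM5, as much lower, beside 3.34%. PBS as control of the knockdowns differs from them in time as well as in treatment.

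By library, the highest of the 5 values fell in siCIP2A for 14 of 38 members and in siSET for 11, where 22.0% and 22.6% of all genes had their highest value. OP449 was highest for 3 members, against 25.3% of genes, and lowest for 14, against 21.1%. siNT was lowest for 11 members, against 19.96% of genes. These 11 were CTSC, CTSF, TPP1, PPT1, LIPA, NPC2, LAMP1, MCOLN1, M6PR, ATP6V0D1 and GABARAP. With siNT as their lowest library, they lie above siNT in both knockdown libraries by definition.

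A wider list of 135 lysosome and autophagy genes was described in the same way, of which 62 were in the table and 59 past the floor. In siSET 10 of the 59 had an interval above 0 and 10 below, beside 19.8% of all genes on each side, with a median of 0.03. In siCIP2A 23 had an interval above 0, beside 21.3%, and 6 below, beside 20.2%, with a median of 0.11. In OP449 12 lay above, beside 19.3%, and 9 below, beside 16.9%, with a median of 0.01. In this list siCIP2A thus leaned higher, as among the members, while the siSET and OP449 counts were close to the shares over all genes. In siSET VPS33A, a subunit of the complex that tethers autophagosomes and endosomes to lysosomes, stood at 233 scaled counts against 455 in siNT and 507 in siCIP2A, a log2 fold of -0.96 [-1.26 to -0.68] against siNT. In siCIP2A RRAGC, a Rag GTPase that recruits mTORC1 to lysosomes, stood at 574 against 363 in siNT and 478 in PBS, at 0.66 [0.46 to 0.87] against siNT. Among the 59 genes past the floor, these were the only ones at least 1.5-fold from siNT in the knockdowns with an interval that leaves out 0. None reached that in OP449 against PBS. By fold alone, 2.84% of all genes were as much higher and 4.31% lower in siSET, and 2.77% and 3.34% in siCIP2A. In OP449 the shares were 2% and 1.77%. Counts this small do not set the wider list apart from all genes.

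Between the knockdown libraries themselves, 17 members were higher in siSET than in siCIP2A, beside 48.7% of all genes, and 21 lower, beside 51.3%. Of all members, 9 had an interval above 0, beside 20.1% of all genes, and 11 below, beside 21.3%. LIPA and GABARAPL1 were at least 1.5-fold higher in siSET, beside 3.97% of genes, and none was as much lower, beside 4.36%. None reached 2-fold, beside 0.82% higher and 0.853% lower. Among the 8 autophagy members 3 lay above 0 and 2 below, with a median of 0.10. In the wider list, 12 of 24 other autophagy genes had an interval below 0 and none above, and of 35 other lysosome genes 11 lay below and 6 above. The differences of at least 1.5-fold in the wider list were all lower in siSET, beside 4.36% of all genes as much lower. They were VPS33A, at -1.12 [-1.41 to -0.84], the processing protease gene ATG4C, at -0.83 [-1.33 to -0.36] from 50 and 138 reads, and the kinase gene ULK3, at -0.68 [-1.01 to -0.36].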

How the data were processed

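RNA of 5 libraries was reverse transcribed with oligo-dT and sequenced on an Illumina GAII, per the labels' protocols. The submitters' processing notes name hg19, CASAVA and Bowtie 1.0.0; no source used here names the counter, its use of strand or the normalization, so reads of overlapping genes cannot be told apart. The deposited signal per RefSeq transcript (scaled counts) is a whole multiple of 1 value per library for 100% of rows, within 0.001 reads, so reads were recovered. Of 16383 rows, 15739 had an accession with a current symbol. The transcript with the highest mean stood for a gene. Folds used a pseudocount of 1 and a floor of 50. Intervals are 95% Clopper-Pearson from the reads, computed with scipy 1.17.1. They were tested on data simulated with counting error alone, which checks the computation and not variation between cultures. A count of 0 allows 3 reads, which is 3.31 scaled counts in siCIP2A to 5.13 in siSET. Lengths came from GENCODE transcripts matched by accession for all 39 members. Transcript coordinates are hg19, counted from 1.

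The members and lists were chosen with earlier results of these data known. Values were given in every library for the 3 members with the highest and the 3 with the lowest fold in each of the 5 comparisons, for members at least 1.5-fold apart, for the most abundant of each class per kilobase, and a few others were added after their values were seen. Genes of the wider list were named where at least 1.5-fold with an interval that leaves out 0. Alternatives were other floors, a pseudocount of 10, a threshold of 2-fold, 3 rescalings, sums over transcript rows and PBS as control.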

Additional observations from a re-analysis of the deposited data

How the results depend on the processing

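With the control unchanged, across other floors, a pseudocount of 10, 3 rescalings and sums over transcript rows, the members' median log2 fold stayed between 0.10 and 0.12 in siSET, between 0.08 and 0.11 in siCIP2A and between -0.09 and -0.04 in OP449, while that between the controls ran from -0.01 to 0.01. Of 629 values recomputed, 612 moved by less than their limits, and 6 changed sign, 4 of them with PBS as control and 2 of them medians close to 0 under a rescaling. The limit of a median was the median half-width of the members' counting intervals. That of a count was a ratio of 1.5, and that of a single gene its own interval. The limit for medians is wide beside medians this close to 0, so the 612 say little about them. The proton pump median of siSET changed sign with PBS as control and still counted as within it. The other floors could move little, because the same 38 members passed a floor of 200 and lower floors added only CTSK. Values under those settings therefore count for little in the 612. With a threshold of 2-fold in place of 1.5, 1 member was left in siSET, 1 in siCIP2A, 0 in OP449 and 0 between the knockdowns. With totals made equal, the members with an interval above 0 in OP449 came to 7, but the share over all genes under that rescaling was not computed. With PBS as control of siSET, 2 members were past 1.5-fold and 3 had an interval below 0, the proton pump median turned from -0.03 to 0.070, and ULK1 turned from -0.50 to 0.061. With PBS as control of siCIP2A, the members' median was 0.17 instead of 0.10, the proton pump median turned from -0.15 to 0.14, ULK1 turned from -0.16 to 0.40, and M6PR, at 0.37, was no longer past 1.5-fold. The use of PBS for counts of intervals and single genes, the rule on both controls and the floor of 200 for background shares were chosen after seeing the data. No paired analysis was possible because each group has 1 library. With 130 to 266 reads for ULK1 and 14 to 34 for CTSK, smaller differences in such genes were not detectable at this depth.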
